A study of Mus musculus with 12 samples.

Results

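The genes described here are 10 regulators of the primitive streak and of early mesoderm: the secreted ligand Wnt8a, the T-box factors T, Eomes and Tbx6, the homeobox factors Gsc, Evx1, Cdx1 and Lhx1, and the basic helix-loop-helix factors Mesp2 and Hand1. Every array probe carrying one of these gene names was taken, which gave 13 of the 55681 non-control probes on the array: 2 each for Eomes, Lhx1 and Tbx6, and 1 for each of the other 7 genes. They were followed in mouse embryonic stem cells grown in serum with leukaemia inhibitory factor (LIF), the condition that holds these cells in self-renewal. Total RNA was measured on 12 one-colour arrays, 4 for each of 3 groups: wild-type cells (WT), cells lacking Id1 (Id1KO), and Id1KO cells stably depleted of Zrf1 (Id1KO_Zrf1KD).

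Proteins of the Id family, such as Id1, lack a DNA-binding region and have a helix-loop-helix fold that pairs with E proteins and keeps these from DNA. Zrf1 is the J-domain protein that the array lists as Dnajc2. The knockdown came from lentiviral hairpins introduced into Id1KO cells and selected with puromycin, so all Id1KO_Zrf1KD cells also lack Id1. No wild-type cells with the knockdown and no Id1KO cells with a control hairpin were analysed here, so the knockdown cannot be told apart from infection and selection. The series description calls the samples independent, yet no separate line or clone is named within a group, and p-values therefore measure the spread between cultures. These are bulk samples, in which fewer cells expressing a gene and less RNA per cell cannot be told apart.

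In the embryo the primitive streak forms where epiblast cells receive Nodal, Wnt and bone morphogenetic protein signals, and cells that pass through it become mesoderm and definitive endoderm. T (brachyury) and Eomes are among the first transcription factors switched on there. Gsc and Lhx1 mark its anterior end and the organizer, Evx1 its posterior part, Cdx1 responds to Wnt and patterns the axis, Tbx6 and Mesp2 act in paraxial mesoderm and segmentation, and Hand1 acts in extraembryonic and lateral mesoderm, the heart and the trophoblast. Embryonic stem cells in serum express several of these genes at low levels in a part of the culture, and basic helix-loop-helix factors, which Id proteins restrain, bind E-boxes (CANNTG).

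The sequence just before the start site is shown for 4 streak factors with a window, T, Eomes, Gsc and Evx1, chosen with their values known, so that the E-boxes near each start can be seen. The first 3 were lower in Id1KO and higher after the knockdown, although T was not lower in Id1KO with normexp background correction. Evx1 was detected in the knockdown cells alone. RefSeq promoter windows (build GRCm38.p6) were used for 7 of the 10 genes, and each line gives the 250 bases before the start, 5′ to 3′ on the gene's strand, with every E-box in capitals.
T promoter, chr17:8434173-8434422, plus strand: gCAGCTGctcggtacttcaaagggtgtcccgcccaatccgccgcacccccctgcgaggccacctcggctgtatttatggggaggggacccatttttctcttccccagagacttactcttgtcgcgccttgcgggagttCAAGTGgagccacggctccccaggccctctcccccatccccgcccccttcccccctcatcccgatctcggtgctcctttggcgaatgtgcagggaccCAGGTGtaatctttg
Eomes promoter, chr9:118477939-118478188, plus strand: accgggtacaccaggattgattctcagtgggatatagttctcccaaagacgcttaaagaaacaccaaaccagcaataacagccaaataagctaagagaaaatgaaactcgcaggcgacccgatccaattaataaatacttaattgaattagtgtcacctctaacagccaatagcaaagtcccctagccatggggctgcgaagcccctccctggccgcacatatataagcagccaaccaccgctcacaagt
Gsc promoter, chr12:104473237-104473486, minus strand: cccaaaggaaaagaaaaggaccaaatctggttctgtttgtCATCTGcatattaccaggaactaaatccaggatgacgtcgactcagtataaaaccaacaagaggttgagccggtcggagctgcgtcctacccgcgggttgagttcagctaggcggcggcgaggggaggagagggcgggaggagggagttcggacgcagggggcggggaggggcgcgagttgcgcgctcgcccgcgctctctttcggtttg
Evx1 promoter, chr6:52313248-52313497, plus strand: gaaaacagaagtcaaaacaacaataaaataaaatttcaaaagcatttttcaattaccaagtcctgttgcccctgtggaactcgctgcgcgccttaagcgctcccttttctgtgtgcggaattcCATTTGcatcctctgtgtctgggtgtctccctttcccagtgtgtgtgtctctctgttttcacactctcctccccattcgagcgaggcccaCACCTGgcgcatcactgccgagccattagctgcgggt

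The T window held 3 E-boxes, which began 249, 112 and 15 bases before the start. The Evx1 window held 2, at 127 and 37 bases, and the Gsc and Mesp2 windows 1 each, at 210 and 44 bases. No E-box letters were found in the Eomes, Lhx1 or Tbx6 windows. Among all 32851 promoter windows of this length, 66.2% held at least 1 E-box, so 4 of 7 is a description of these windows and no more. None of the 7 windows held a T-box site (AGGTGTGA), a TCF site (CTTTGAT) or a palindromic SMAD-type site (GTCTAGAC) on either strand, against 1.12%, 3.21% and 0.167% of all windows. An E-box of the form CAGGTG can share letters with the T-box site, but no window here held both. A match or its lack says only which letters stand in the window.

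Levels are given as log2 of the processed signal, the scanner software's background-subtracted intensity, relative to the 75th percentile of the same array. A value of 0 is thus a probe as bright as that percentile, and levels compare groups for 1 probe, never 1 probe with another. The share of spots well above background ran from 54.8% to 59.3%, and no spot was saturated. The 75th percentile itself differed by group: WT arrays lay between 440.7 and 550.2 signal units, Id1KO arrays between 393.3 and 491.8, and Id1KO_Zrf1KD arrays between 554.0 and 596.5. Dnajc2 was 4.47-fold lower in Id1KO_Zrf1KD than in Id1KO (limma, adjusted p = 1.2e-09). The Id1 probe gave 1.29-fold more signal in Id1KO than in WT (adjusted p = 0.053), and without knowledge of which bases were deleted it does not check the genotype. The 8 pluripotency markers listed, including Pou5f1, Sox2 and Nanog, were well above background on every array.

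Whether a probe was detected differed between the groups for several of these genes. Of the 13 probes, 5 were well above background on all 12 arrays: Cdx1, Mesp2, both Tbx6 probes and 1 Eomes probe. T and Gsc were well above background on 4 of 4 WT and 4 of 4 Id1KO_Zrf1KD arrays and on 0 of 4 Id1KO arrays. Hand1 was detected on 4 WT, 1 Id1KO and 4 Id1KO_Zrf1KD arrays. Wnt8a showed another pattern, with 0 WT, 4 Id1KO and 4 Id1KO_Zrf1KD arrays. Evx1 was detected on 0 WT, 0 Id1KO and 4 Id1KO_Zrf1KD arrays, so it was seen in the knockdown cells alone. The Lhx1 probe A_55_P2231244 was detected on 2, 2 and 4 arrays of WT, Id1KO and Id1KO_Zrf1KD. The second Eomes probe (A_55_P2184434, 3, 0 and 2 arrays) and the second Lhx1 probe (A_52_P652336, 0, 0 and 1) did not reach 4 arrays in any group and were not tested. The remaining 11 probes, covering all 10 genes, were tested.

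**Figure D1:**
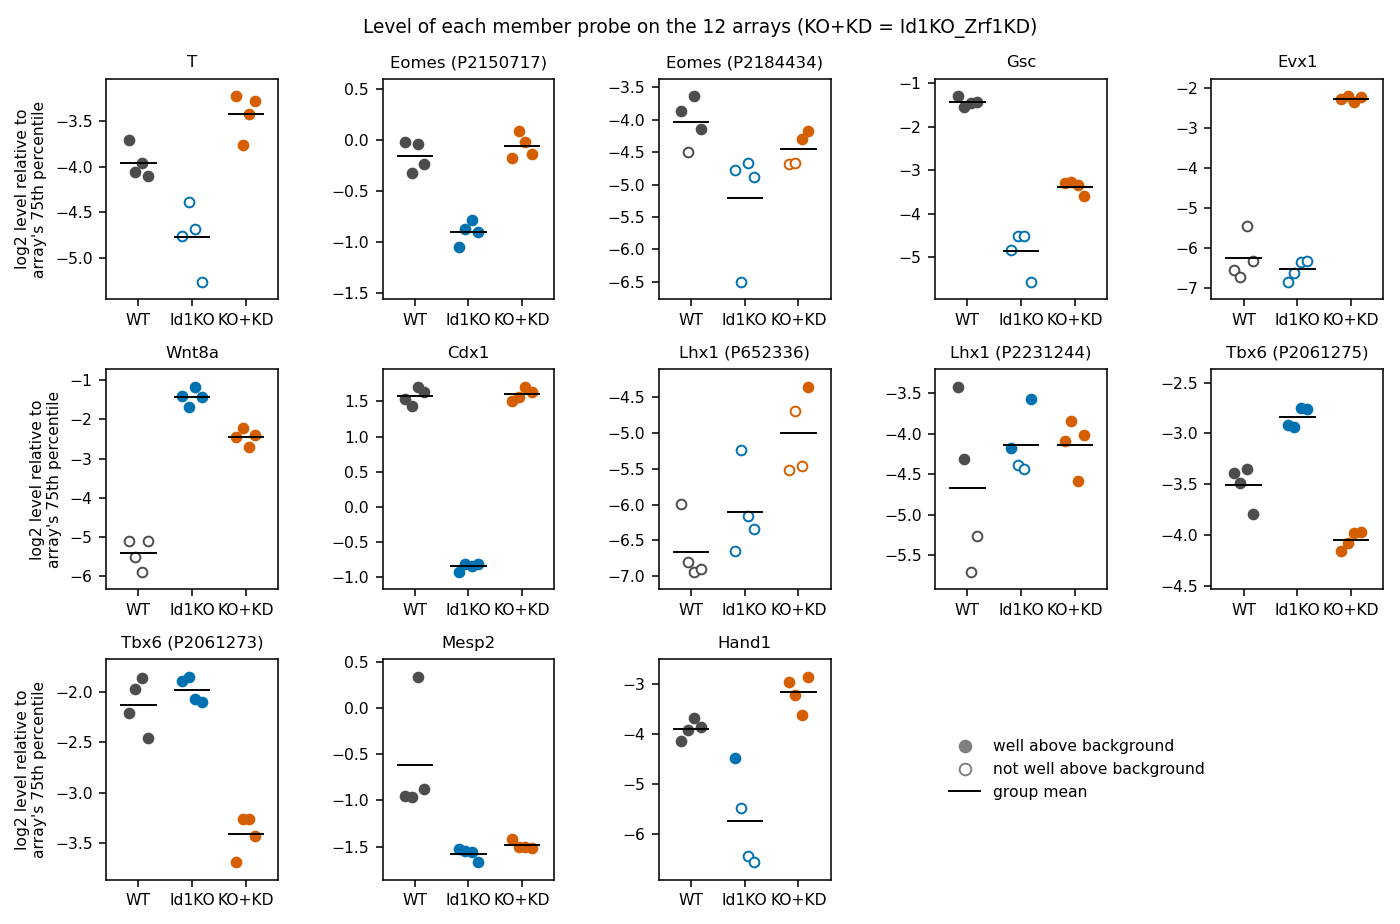
Level of each of the 13 probes (y axis, log2 relative to the array's 75th percentile) on the 4 arrays of WT, Id1KO and Id1KO_Zrf1KD (KO+KD), with filled points where the probe was well above background, open points where it was not, and a line at the group mean. Evx1 is open in WT and Id1KO and filled in Id1KO_Zrf1KD, Wnt8a is open in WT alone, T and Gsc are open in Id1KO alone, and 1 WT array of Mesp2 stands at 0.34, above the other 3.

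In Id1KO cells 8 of the 11 tested probes changed from WT, by limma's moderated test at a Benjamini-Hochberg adjusted p under 0.05, here called a call: 6 were lower (T, Eomes, Gsc, Cdx1, Mesp2 and Hand1) and 2 were higher (Wnt8a and the Tbx6 probe A_55_P2061275). Over all 30885 probes tested, 70.4% were called in this comparison, 42.3% higher and 28.1% lower, so the number called among the members was close to the background. The members' median log2 fold change was -0.75, against 0.16 over all probes. For 8 of the 11 the 4 Id1KO values did not overlap the 4 WT values, which was so for 64.4% of all probes. After knockdown, 9 of 11 differed between Id1KO_Zrf1KD and Id1KO: 6 higher (T, Eomes, Gsc, Evx1, Cdx1 and Hand1) and 3 lower (Wnt8a and both Tbx6 probes). The background there was 71.0% called, 30.3% higher and 40.6% lower, and the members' median was 0.84 against -0.12 over all probes. The values did not overlap for 10 of 11 members and for 65.9% of all probes. Between Id1KO_Zrf1KD and WT 7 of 11 differed, 3 higher (T, Evx1 and Wnt8a) and 4 lower (Gsc, Mesp2 and both Tbx6 probes), beside 63.7% of all probes, 31.4% higher and 32.4% lower. There the members' median was 0.09 against -0.03 over all probes, and 7 of 11 members, beside 59.9% of all probes, did not overlap. Evx1 and the Lhx1 probe met the filter through the Id1KO_Zrf1KD arrays alone. The calls of Evx1 as higher in that group therefore add nothing to its detection there. Wnt8a met the filter through Id1KO and Id1KO_Zrf1KD, and T, Gsc and Hand1 met it through WT and Id1KO_Zrf1KD. Their calls against the remaining group likewise add nothing to the difference in detection. The 3 comparisons share groups, so a value that is extreme in Id1KO enters the first and the second with opposite sign.

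**Figure D2:**
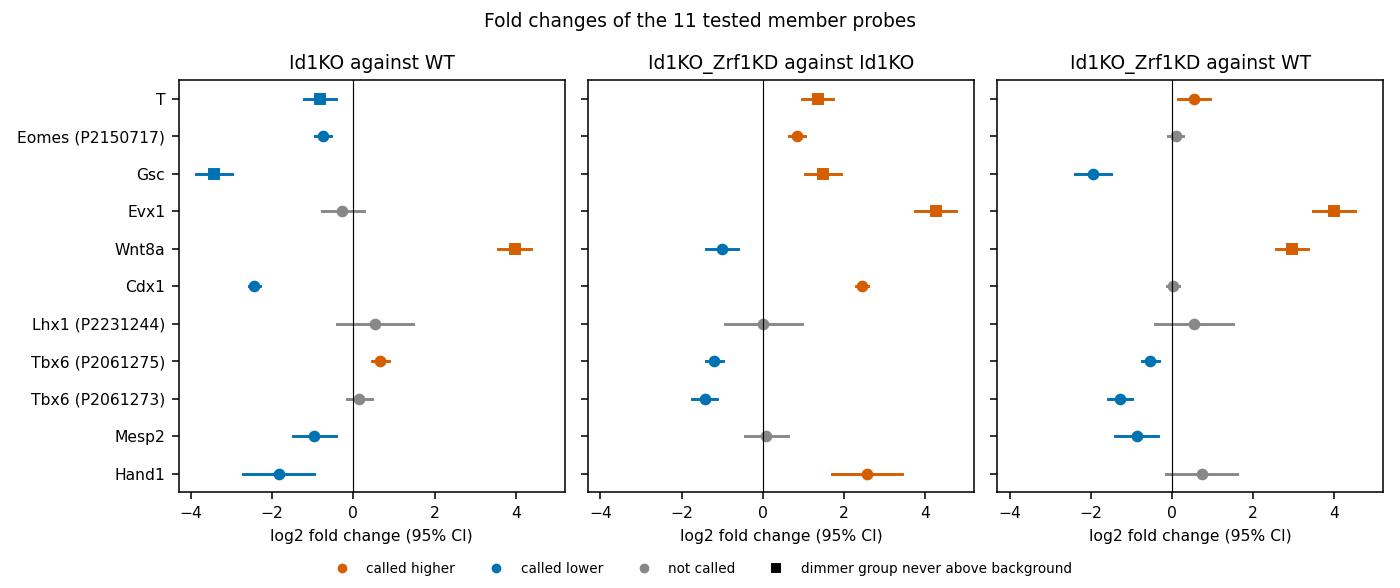
Log2 fold change with its 95% confidence interval (x axis) of the 11 tested probes (y axis) in the 3 comparisons, coloured by limma's call at an adjusted p of 0.05. Squares mark comparisons in which the dimmer group alone had no array well above background, for which the text gives the fold as a bound. Cdx1 stands at -2.44, 2.45 and 0.02, while Evx1 stands at -0.27, 4.26 and 3.99.

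Wnt8a, a canonical Wnt ligand of the posterior streak, was seen in both Id1-deficient groups and not in WT. Its probe (A_55_P2073432, chr18:34707599-34707658 in build mm9, plus strand) stood at -5.10, -5.52, -5.89 and -5.09 on the 4 WT arrays, none above background. It reached -1.42, -1.69, -1.17 and -1.43 in Id1KO and -2.44, -2.21, -2.70 and -2.41 in Id1KO_Zrf1KD. The 3 groups did not overlap: WT was dimmest, Id1KO brightest and the knockdown cells between. Wnt8a was at least 12.8-fold higher in Id1KO than in WT (adjusted p = 7.6e-09), and this bound fell to 3.53 with normexp background correction and 3.12 in the authors' deposited values. With the knockdown it fell 2.01-fold (log2 fold change -1.01 ± 0.18 SE, adjusted p = 0.00044). It remained at least 6.37-fold above WT (adjusted p = 9.1e-08), or 2.10 with normexp and 2.06 in the deposited values. The probe met the filter only through Id1KO and Id1KO_Zrf1KD, so its p-values against WT add nothing to its detection there.

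T, the T-box factor that drives posterior mesoderm formation, was dim throughout. Its probe (A_55_P2029161, chr17:8635302-8635361, plus strand) stood at -3.71, -4.06, -3.96 and -4.10 in WT, at -4.76, -4.39, -4.68 and -5.26 in Id1KO, and at -3.23, -3.76, -3.42 and -3.28 in Id1KO_Zrf1KD. In signal units these are 31.1 to 35.5, 10.5 to 18.7 and 41.0 to 61.5. Id1KO was lowest and did not overlap either other group, and of WT and the knockdown cells only the closest values, -3.71 and -3.76, crossed. T was at least 1.54-fold lower in Id1KO than in WT (limma, adjusted p = 0.0017), and it was still called in the deposited values (adjusted p = 0.0013), where the bound was 1.13. With normexp the call was lost, at a log2 fold change of 0.01 (adjusted p = 0.95). It was at least 2.24-fold higher after the knockdown than in Id1KO (adjusted p = 4e-05), at least 1.10-fold with normexp and at least 1.33-fold in the deposited values. The 1.45-fold excess of Id1KO_Zrf1KD over WT (adjusted p = 0.021) lost its call without WT replicate 2 (0.051), WT replicate 4 (0.055), knockdown replicate 1 (0.058) or knockdown replicate 4 (0.055).

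Eomes, the T-box factor of the anterior streak and of the trophoblast, was bright enough to measure on every array. Probe A_55_P2150717 (chr9:118394425-118394484, plus strand) gave -0.02, -0.32, -0.04 and -0.23 in WT and -1.05, -0.87, -0.78 and -0.90 in Id1KO. In Id1KO_Zrf1KD it gave -0.17, 0.09, -0.02 and -0.14. Every Id1KO array lay below every array of both other groups, which overlapped each other. Eomes fell 1.68-fold in Id1KO (-0.75 ± 0.09, adjusted p = 1.5e-05) and rose 1.79-fold after the knockdown (0.84 ± 0.09, adjusted p = 6.1e-06). The difference between Id1KO_Zrf1KD and WT was 0.09, with a 95% interval of -0.10 to 0.28 (adjusted p = 0.40). The second Eomes probe (chr9:118395189-118395248) was not tested with the others; in a fit without the filter on dim probes its log2 fold changes were -1.17 (adjusted p = 0.024), 0.75 (0.12) and -0.41 (0.49) in the same order of comparisons.

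Tbx6, which directs cells to a paraxial fate, was the one T-box factor with higher signal in Id1KO than after the knockdown, and its 2 probes did not behave alike. Probe A_55_P2061275 (chr7:133928828-133928887) stood at -3.39, -3.49, -3.35 and -3.79 in WT, -2.92, -2.94, -2.75 and -2.76 in Id1KO, and -4.15, -4.07, -3.98 and -3.97 in Id1KO_Zrf1KD. Its 3 groups were all separate. Signal rose 1.58-fold in Id1KO (0.66 ± 0.10, adjusted p = 7.9e-05), by 0.18 on the log2 scale in the deposited values, and fell 2.30-fold after the knockdown (-1.20 ± 0.10, adjusted p = 6.6e-07; -0.34 in the deposited values), which left it 1.45-fold below WT (adjusted p = 0.00045).

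The other Tbx6 probe, A_55_P2061273 (chr7:133929000-133929059), begins 172 bases further along the transcript. It stood at -2.21, -1.97, -1.86 and -2.46 in WT, -1.89, -1.85, -2.07 and -2.10 in Id1KO, and -3.69, -3.26, -3.26 and -3.43 in Id1KO_Zrf1KD. WT and Id1KO overlapped, with a difference of 0.15 (95% interval -0.16 to 0.45, adjusted p = 0.36). The knockdown cells lay below both, 2.70-fold under Id1KO (adjusted p = 3.2e-06) and 2.44-fold under WT (adjusted p = 8.6e-06). These log2 fold changes, -1.43 and -1.29, were -0.86 and -0.71 with normexp and -0.59 and -0.61 in the deposited values. Whether the probes moved unequally was tested, after their values had been seen, on the difference between them within each array. WT arrays gave a mean of -1.38 ± 0.16 (SD, n = 4), Id1KO arrays -0.86 ± 0.23 and Id1KO_Zrf1KD arrays -0.63 ± 0.16. By a two-sided exact permutation test it differed from WT in both other groups (p = 0.029 each, the smallest that 4 against 4 can give, and 0.044 adjusted over 3 comparisons). Between Id1KO_Zrf1KD and Id1KO the test gave an exact p of 0.20. Both probes were therefore lower after the knockdown, whereas a rise of Tbx6 in Id1KO rests on 1 of them.

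Gsc, the homeobox repressor of the organizer, was strongly reduced in Id1KO. Probe A_51_P370717 (chr12:105709426-105709485, minus strand) gave -1.30, -1.54, -1.44 and -1.43 in WT. On the Id1KO arrays it gave -4.83, -4.51, -4.52 and -5.57, none above background, and on the Id1KO_Zrf1KD arrays -3.29, -3.28, -3.35 and -3.59. No group overlapped another, and the knockdown cells stood between Id1KO and WT. Gsc was at least 8.97-fold lower in Id1KO than in WT (adjusted p = 5.2e-08), at least 2.73-fold with normexp and 3.17-fold in the deposited values. It was at least 2.32-fold higher after the knockdown than in Id1KO (adjusted p = 5.1e-05; 1.17 with normexp, 1.40 in the deposited values), and still 3.87-fold below WT (-1.95 ± 0.20, adjusted p = 6.2e-06; -1.23 with normexp and -1.17 in the deposited values).

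Evx1, the homeobox factor of the posterior streak, had no array well above background in WT or Id1KO. Its probe (A_55_P2125521, chr6:52268298-52268357, plus strand) gave 4.69 to 12.5 signal units on WT arrays, 3.99 to 5.10 on Id1KO arrays and 115 to 119 on Id1KO_Zrf1KD arrays. On the relative scale the knockdown arrays stood at -2.28, -2.22, -2.37 and -2.24, and the 8 other arrays between -6.85 and -5.46. The tight knockdown values were thus separate from all others. Evx1 was at least 5.94-fold higher in Id1KO_Zrf1KD than in Id1KO (adjusted p = 3.5e-08; 1.76 with normexp, 2.07 in the deposited values) and at least 7.35-fold higher than in WT (adjusted p = 6.1e-08; 2.22 and 2.15). No fold is given between Id1KO and WT, where both were below background (adjusted p = 0.32). The probe was tested only because the knockdown arrays met the filter, so the p-values of its rise add nothing to that detection.

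Cdx1, a caudal-type homeobox gene that responds to Wnt and retinoic acid, was measured far above background everywhere. Probe A_55_P2157205 (chr18:61178558-61178617, minus strand) stood at 1.54, 1.44, 1.71 and 1.64 in WT, at -0.93, -0.81, -0.84 and -0.82 in Id1KO, and at 1.51, 1.56, 1.71 and 1.63 in Id1KO_Zrf1KD. All Id1KO arrays were low, and the other groups lay over each other. Cdx1 fell 5.41-fold in Id1KO (-2.44 ± 0.07, adjusted p = 1.7e-10) and rose 5.47-fold with the knockdown (2.45 ± 0.07, adjusted p = 2.5e-10). Id1KO_Zrf1KD and WT differed by 0.02, with a 95% interval of -0.13 to 0.16 (adjusted p = 0.86). Of the probes well above background on all 12 arrays that belong to other genes, 16188 in all, those of Cpe (Pearson r = 0.999), Tbx3 (0.998) and Slc13a5 (0.997) followed Cdx1 most closely over the arrays, a description that rests largely on the same 3 groups.

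Lhx1, the LIM-homeobox factor of the organizer and node, was close to background, and its tested probe was not called in any comparison. Its tested probe (A_55_P2231244, minus strand) has 60 bases that lie over 153 bases of the genome in the array's annotation, chr11:84335442-84335594, so it spans a gap in the gene. It stood at -3.42, -4.31, -5.71 and -5.27 in WT, a wide spread (SD 1.02, n = 4). In Id1KO it stood at -4.18, -4.39, -4.44 and -3.57, and in Id1KO_Zrf1KD at -4.09, -3.84, -4.59 and -4.02. All 3 groups overlapped. The Id1KO minus WT difference was 0.53, with a 95% interval of -0.41 to 1.48 (adjusted p = 0.29). Single WT arrays moved this value. Without WT replicate 1, the brightest, the differences from WT were 0.95 for Id1KO (limma, adjusted p = 0.027) and 0.96 for Id1KO_Zrf1KD (adjusted p = 0.029). Without WT replicate 3 the Id1KO difference was 0.19 (adjusted p = 0.69), and within single slides it ran from -1.01 to 1.2. Id1KO_Zrf1KD and Id1KO differed by 0.01, with an interval of -0.94 to 0.96. The other Lhx1 probe (chr11:84331888-84331947) was above background on 1 knockdown array alone. In the fit without the filter on dim probes it gave 0.56 (adjusted p = 0.23) in Id1KO against WT, 1.09 (0.026) after the knockdown and 1.65 (0.0039) in the knockdown cells against WT.

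Mesp2, the basic helix-loop-helix factor that sets somite boundaries, was lower in both Id1-deficient groups than in WT. Probe A_51_P317433 (chr7:86957849-86957908) gave -0.95, -0.96, 0.34 and -0.88 in WT, with replicate 3 standing apart. Id1KO gave -1.53, -1.55, -1.56 and -1.67, and Id1KO_Zrf1KD gave -1.42, -1.50, -1.50 and -1.52. Every WT array was above every other array, and Id1KO lay just under Id1KO_Zrf1KD without overlap. Mesp2 fell 1.95-fold in Id1KO (-0.96 ± 0.24, adjusted p = 0.0040) and was 1.83-fold below WT in the knockdown cells (-0.87 ± 0.24, adjusted p = 0.0081). Without WT replicate 3 these log2 fold changes were -0.65 (adjusted p = 1.6e-06) and -0.56 (adjusted p = 5.9e-06). The knockdown against Id1KO gave 0.09 (95% interval -0.44 to 0.63, adjusted p = 0.75), and 0.09 (adjusted p = 0.10) without that array.

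Hand1, the basic helix-loop-helix factor of extraembryonic and lateral mesoderm and of trophoblast giant cells, was also low in Id1KO. Its probe (A_51_P342549, chr11:57642342-57642401, minus strand) stood at -4.15, -3.92, -3.68 and -3.86 in WT and at -4.48, -5.48, -6.44 and -6.56 in Id1KO, where only the first was above background. In Id1KO_Zrf1KD it stood at -2.97, -3.22, -3.63 and -2.86. All 3 groups were separate, although the gap between WT and the knockdown cells was narrow, from -3.68 to -3.63. Hand1 was 3.57-fold lower in Id1KO than in WT (-1.84 ± 0.39, adjusted p = 0.0015) and 5.94-fold higher after the knockdown (2.57 ± 0.39, adjusted p = 0.00013), on measured levels of which 3 of 4 in Id1KO are below background. Counting each Id1KO array at no less than its own dimmest detected probe, a choice made after seeing the values, these folds were at least 1.77 and at least 2.95. Both log2 fold changes were smaller with normexp, at -0.28 and 0.58, and in the deposited values, at -0.48 and 0.82. Against WT the knockdown cells gave 0.73 (95% interval -0.14 to 1.60, adjusted p = 0.13). That difference passed the threshold with normexp (0.30, adjusted p = 0.040), in the deposited values (0.34, adjusted p = 0.022) and without Id1KO replicate 1 (adjusted p = 0.025).

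**Figure D3:**
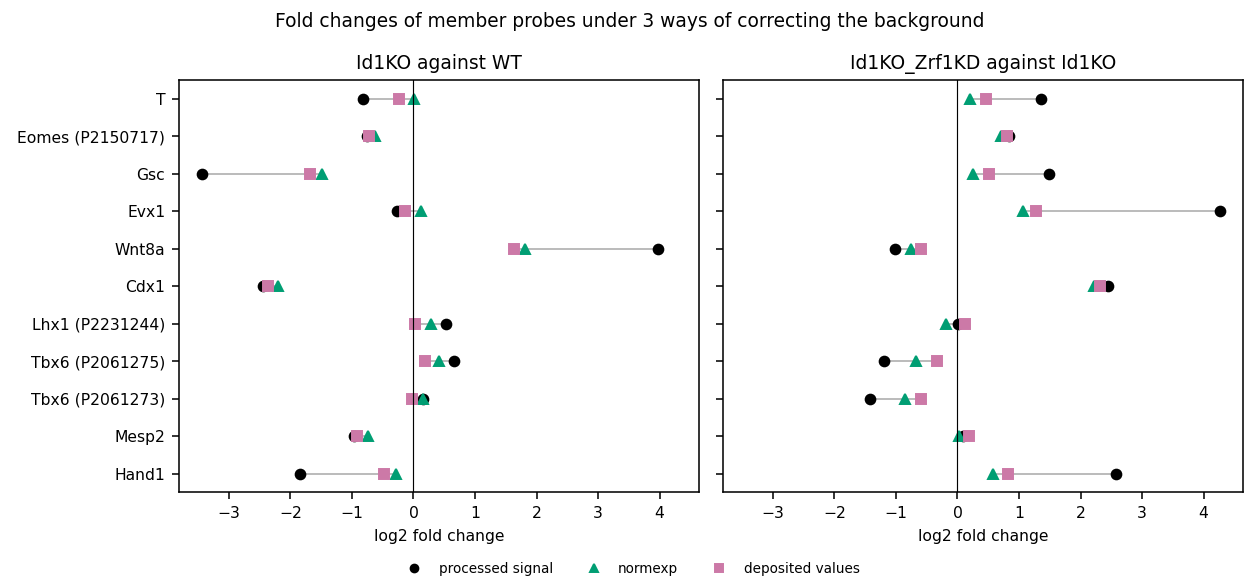
Log2 fold change (x axis) of the 11 tested probes (y axis) for Id1KO against WT and for Id1KO_Zrf1KD against Id1KO, from the processed signal (circles), after normexp correction (triangles) and from the deposited values (squares). Cdx1 and Eomes change little between the 3, while the dim probes shrink, Evx1 from 4.26 to 1.06 after the knockdown and Gsc from -3.43 to -1.48 in Id1KO.

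The order of the levels thus took several forms. Cdx1 and Eomes were low in Id1KO alone, with no difference between WT and the knockdown cells beyond their spread. Gsc was highest in WT, then in the knockdown cells, then in Id1KO. T and Hand1 ran from the knockdown cells through WT to Id1KO, with the first step lost for T when some arrays were left out and not called for Hand1. For T the step from WT to Id1KO was lost with normexp (log2 fold change 0.01). Wnt8a ran from Id1KO through the knockdown cells to WT, Tbx6 was lowest in the knockdown cells, Mesp2 was highest in WT, Evx1 was seen with the knockdown alone, and Lhx1 showed no called difference by its tested probe. For the other genes measured on all 12 arrays, the closest followers were Pgs1 (r = 0.981) for Eomes, Ptpmt1 (0.983) and Slc47a2 (0.984) for the 2 Tbx6 probes in the order above, and Wwox (0.946) for Mesp2.

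Of 63 further genes of streak signalling and mesoderm formation, 49 had a probe that could be tested, and 14 did not, among them Wnt3, Wnt3a, Mixl1, Mesp1 and Msgn1. Each gene was counted by its brightest tested probe. In Id1KO 23 of the 49 rose and 11 fell, or 46.9% and 22.4%, beside the 42.3% and 28.1% of all probes given above. Their median log2 fold change was 0.10. With quantile normalization, and also in the deposited values, the counts were 19 higher and 14 lower. Lef1, a nuclear effector of Wnt signals, was 28.8-fold higher (adjusted p = 6.7e-14), and the Nodal antagonists Lefty1 and Lefty2 were 8.29-fold (3.3e-12) and 1.99-fold higher (1.1e-08). Otx2, a factor of anterior epiblast, rose 6.71-fold, and the Notch ligand Dll1 rose 3.47-fold. The lowest adjusted p-values among those that fell belonged to Gata4 (1.89-fold), the forkhead factors Foxc1 (at least 2.33-fold; log2 fold change -0.44 with normexp) and Foxc2 (4.26-fold; -0.68 with normexp), the cardiac factor Nkx2-5 (2.31-fold; -0.39 with normexp) and the ligand Gdf1 (1.25-fold). Of the 7 ligands and co-receptors 4 rose and 3 fell, and of the 8 streak and axial factors 4 rose and 0 fell. Among those that rose, Nkx1-2 was above background on 2 Id1KO arrays and 1 WT array. Nkx1-2 and Foxh1 were not called under every scaling (highest limma adjusted p = 0.3 and 0.056). For Kdr and Tcf4 the direction depended on the probe. Kdr, counted as higher at 1.27, had another probe at -2.64, and Tcf4, counted as lower at -0.19, had one at 1.25.

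After the knockdown 20 of the 49 rose and 15 fell relative to Id1KO (median 0.08), or 40.8% and 30.6%, beside 30.3% and 40.6% of all probes and a median of -0.12 over all probes. With normexp the counts were 18 and 18, and with the percentile taken over probes detected on all arrays 20 and 19. Bmp4, the ligand that induces posterior streak and extraembryonic mesoderm, was 4.04-fold higher (adjusted p = 1.8e-10), and the mesoderm receptor gene Pdgfra was 2.75-fold higher (1.76-fold with normexp). Foxa2, a factor of anterior streak and endoderm, rose 6.43-fold (3.99-fold with normexp), the Wnt target Sp5 6.28-fold (3.57-fold with normexp) and the activin antagonist Fst 3.69-fold. Lefty1 fell 4.73-fold, Lefty2 2.63-fold, Otx2 2.16-fold, Lef1 2.03-fold and Dll1 1.99-fold. The lateral, cardiac and vascular genes divided into 6 higher and 3 lower of 9, with a median of 0.83 beside the -0.12 of all probes. This was the largest median of any role. The other roles had medians from -0.14 (ligands and co-receptors) to 0.67 (streak and axial factors). Nkx2-5, counted as higher, gave a log2 fold change of 0.01 with normexp. Kdr, counted as lower at -1.44, had another probe at 3.03, so the division of its role rests on the probe chosen. Tcf4, a cofactor counted as higher at 0.46, had another probe at -0.8.

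Relative to WT, Id1KO_Zrf1KD cells had 26 of the 49 higher and 9 lower (median 0.46). Lef1 was 14.2-fold, Foxa2 12.8-fold (6.03-fold with normexp), Bmp4 3.44-fold and Pdgfra 2.66-fold higher, and Otx2 rose by 1.63 on the log2 scale. The genes that were lower with the smallest adjusted p-values were Gdf1 (1.74-fold), Nkx2-5 (1.62-fold), the growth factor gene Fgf8 (1.46-fold), Lefty2 (1.33-fold) and the LIM cofactor Ldb1 (1.22-fold). The counts of 26 and 9 are 53.1% higher and 18.4% lower, beside 31.4% and 32.4% of all probes and a median of -0.03 over all probes. With the percentile taken over probes detected on all arrays they were 26 and 13, and in the deposited values 27 and 12. The list was chosen with earlier results known.

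**Figure D4:**
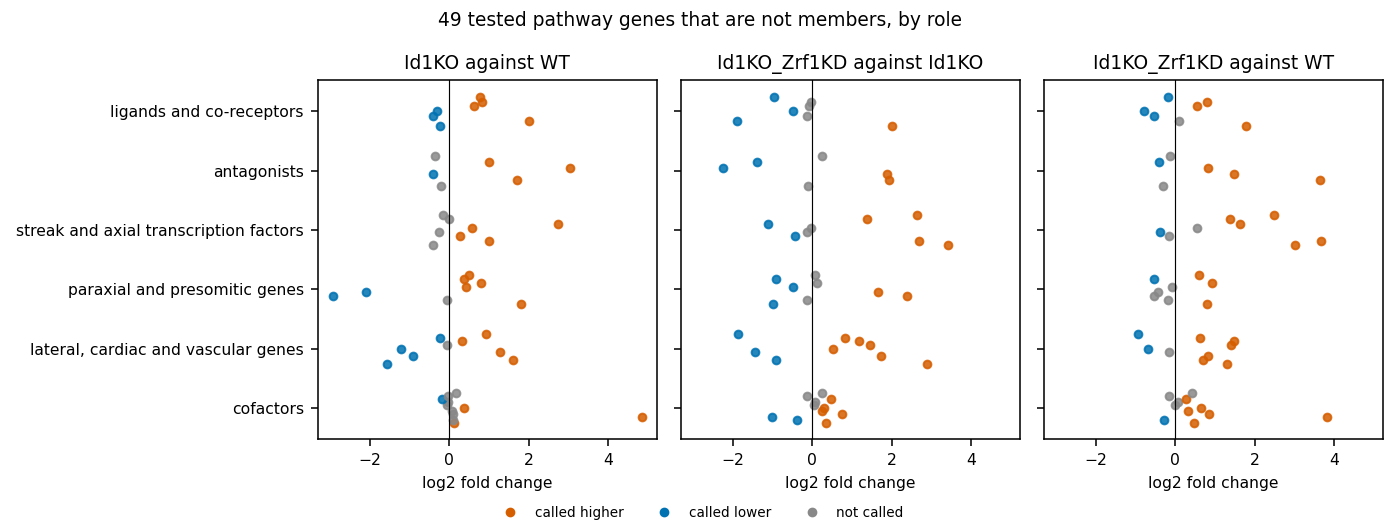
Log2 fold change (x axis) of the 49 tested genes of streak signalling and mesoderm that are not members, 1 point a gene (its brightest tested probe), in rows by role and coloured by limma's call, for the 3 comparisons. Points fall on both sides of 0 in most rows, and the point farthest right in the first comparison is Lef1 at 4.85.

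Markers of other cell types also differed between the groups. Each list is given as a sum of signal over its probes, in which the brightest weigh most. These are Tcfap2c and Krt18 in the trophoblast list and Dnmt3b and Otx2 in the epiblast list. Gata4, Sox17, Foxa2, Cdx2, Otx2 and Tdgf1, which are on the marker lists, are also among the streak and mesoderm genes counted above. The summed signal of the fibroblast list, on the log2 scale relative to the 75th percentile, ran from 5.45 to 5.50 on WT arrays, from 4.73 to 4.82 on Id1KO arrays and from 6.78 to 6.83 on Id1KO_Zrf1KD arrays, with 9, 8 and 10 of 10 genes above background on all arrays of the group. Lum was above background on knockdown arrays alone, and 8 of the 10 genes had their lowest mean in Id1KO and their highest in the knockdown cells. The endoderm list had 7.67 to 7.75, 6.74 to 6.80 and 8.47 to 8.52, with 12, 12 and 14 of 14 genes, and Afp was seen in the knockdown cells alone. That sum was carried by Sparc, whose mean level was 7.42, 6.48 and 8.02. All 14 genes had their highest mean in the knockdown cells, but 6 of them, Gata6, Sox7, Foxa2, Afp, Ttr and Amn, had a higher mean in Id1KO than in WT, and the other 8 a lower one. The trophoblast list, which contains Eomes and Hand1, had 5.73 to 5.84, 5.08 to 5.15 and 5.98 to 6.01, with 9, 7 and 10 of 11 genes on the array. Its defining gene Cdx2 was above background on 0, 0 and 4 arrays and Elf5 on 1, 0 and 2. All 11 trophoblast genes had a lower mean in Id1KO than in WT, while 5 had their highest mean in WT and 6 in the knockdown cells. The 3 sums were lowest in Id1KO and highest in the knockdown cells, as were the group means of T and Hand1 on the processed signal. Single genes of the lists did not all follow this order. Such orders rank group means, including those of undetected genes, and were not tested.

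The epiblast sum ran the other way, in the same order as Wnt8a. It was 4.48 to 4.55 on WT arrays, 6.89 to 7.01 on Id1KO arrays and 6.03 to 6.22 on Id1KO_Zrf1KD arrays. Of the 4 epiblast genes, 3 had their highest mean in Id1KO. Fgf5, above background on 0, 4 and 4 arrays, had means of -7.21, -1.22 and -1.1, highest in the knockdown cells. The pluripotency list was 9.15 to 9.30, 8.71 to 8.77 and 8.84 to 8.90, the neural list (4 genes) 2.79 to 2.90, 1.88 to 1.99 and 2.42 to 2.55, and the haematopoietic list (4 genes, Hbb-b1 above background on 0 arrays) 1.04 to 1.24, 0.18 to 0.48 and 1.09 to 1.21. In Id1KO 6 of the 8 pluripotency genes had a lower mean than in WT, and Tdgf1 and Utf1 a higher one. Of the neural genes 3 were lower and 1, Pax6, was higher, and the haematopoietic genes divided into 2 and 2. The higher ones, Ptprc and Hbb-b1, were above background on 0 WT arrays. The part of any of these cell types in the members' changes was not tested.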

How the data were processed

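Per the file headers, the authors' scanner files came from Agilent Feature Extraction 10.7.3.1 and hold intensity per spot: a processed signal, background-subtracted and not normalized between arrays, with flags per spot. The deposited table holds log2 values with a median of 6.55 in every column; its background correction and normalization are not given in the sources used here. The processed signal was taken to log2 minus each array's 75th percentile over non-control spots. Spots marked as outliers were left out (108 to 302 per array). A probe was kept if it was well above background on all 4 arrays of at least 1 group, which left 30885 of 55681 probes, 286 of them with a missing value. All were fitted together in limma 3.58.1 under R 4.3.3 (files were read with version 1.17.8 of data.table) with a mean per group, and p-values were adjusted by Benjamini-Hochberg within each comparison, threshold 0.05. Where a group had no array above background, a fold is a bound ("at least"), against that group's values raised, where lower, to the lowest level above background on the same array; bounds are given for the processed signal unless another is named. Such a bound is no strict limit, because a probe can be undetected above that level. On Id1KO replicate 2, T was not detected at 18.7 signal units, while the dimmest detected probe stood at 16.2. Folds are linear ratios of mean levels.

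The fit was tested on simulated data for Id1KO against WT, with 200 changed probes among 30599. It recovered 52% of log2 changes of 0.5 and 83% of log2 changes of 1, with 9 false calls. Far fewer probes changed there than were called in the real data, so the simulation does not show how the fit behaves at that share. The arrays came from 3 slides, each holding all 3 groups. After each group's mean was removed, arrays sharing a replicate number correlated across probes at -0.18 (median) and those on 1 slide at 0.22, so numbers were not used as pairs. Alternatives were normexp correction (offset 50), quantile normalization, another percentile base, the deposited values, no filter, the brightest probe per gene, slide or replicate as a block, and each array left out.

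The genes, gene lists and tests were chosen with earlier results of these data known. Named were all probes of the 10 genes, of the pathway list the 5 genes with the smallest adjusted p in each direction of a comparison, 2 targeted genes, and for members above background on all 12 arrays the 3 other genes' probes with the highest Pearson correlation. Coordinates are those of the array's annotation (mm9). Promoters are RefSeq's, and only the 250 bases before the start were searched.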

Additional observations from a re-analysis of the deposited data

Results flagged for a closer look

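Mesp2 in WT was the 1 outlying value among 33 sets of 4 arrays examined for the 11 tested probes. WT replicate 3 stood at 0.34 on the log2 scale relative to the 75th percentile, against -0.96 to -0.88 on the other 3 WT arrays, and the gap made up 0.941 of the group's whole range. Chance alone marks about 1 in 20 such sets. The probe was well above background on all 4 arrays, and the Mesp2 calls held without that array.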

How the results depend on the processing

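The number of members called stayed within 1.5 times the reported count under every alternative run: 7 to 9 for Id1KO against WT, 8 to 10 for Id1KO_Zrf1KD against Id1KO and 6 to 8 for Id1KO_Zrf1KD against WT. With single arrays left out it was 8 to 9, 9 and 6 to 8. With the replicate block it was 8, 9 and 7, as without it, and 1 of 12 arrays correlated best with an equally numbered array of another group. The number of member probes tested was 11, but 13 without the filter and 10 with the brightest probe per gene. Calls over all probes moved as well. For Id1KO against WT they were 21755 of 30885 in the main fit and 28793 of 55681 without the filter. A steady count is therefore no result about the members. For 1 called change the direction was lost: T in Id1KO against WT gave 0.01 (limma, adjusted p = 0.95) with normexp. The cause was not tested. Differences that were not called could also change sign, such as Evx1 in Id1KO against WT, from -0.27 to 0.12 with normexp. Normalization moved the balance of all calls. The share of calls that were higher was 60.1% for Id1KO against WT, 51.1% with quantile normalization, 51.2% in the deposited values and 70.5% without the filter on dim probes. For Id1KO_Zrf1KD against Id1KO it was 42.7%, and 30.4% without the filter. The median of all probes in Id1KO against WT was 0.16, and 0.02 with quantile normalization. Signal over background limits the dim probes: the called changes of T, Gsc, Evx1, Wnt8a, Hand1 and Tbx6 were smaller with normexp and in the deposited values.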
